A study of Mus musculus with 54 samples.

Results

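The IL-12 family was followed across macrophage polarization and reprogramming through 7 genes chosen by their symbols, the cytokine subunits Il12a, Il12b, Il23a, Il27 and Ebi3 and the receptor chains Il12rb1 and Il12rb2. All 7 were among the 39179 genes counted in the files. The cells were peritoneal macrophages of C57BL/6 mice, elicited with thioglycolate and adhering to plastic, and their RNA was sequenced in bulk. In the polarization experiment, macrophages of 3 mice were left without cytokine (M0), were given LPS at 100 ng/ml with IFN-γ at 50 ng/ml (M1-like) or were given IL-4 at 10 ng/ml (M2-like), each for 24 h, and each of the 9 samples was sequenced in 2 technical replicates with 50 nt reads. In the reprogramming experiment, 36 libraries with 150 nt reads covered 12 conditions with 3 replicates each. M0, M1-like and M2-like macrophages were taken untransfected or after mock transfection, and M2-like macrophages were also taken after transfection with a negative siRNA pool, with pools against E2f1, Myc, Pparg or Stat6, or with the combined pool against these 4 transcription factors. By the study's methods, transfection followed 24 h of polarization and culture then went on without IL-4. Transfected and mock cells were sequenced 48 h after transfection, and polarized cells without transfection at 24 h. The methods do not say whether this 24 h also holds for the untransfected libraries of the reprogramming experiment. The paper calls the cells that received the combined pool iM1. Where the methods describe RNA isolation and quantitative PCR, they count 3 biological replicates of M0, iM1, M1-like and M2-like cells. The labels do not say whether the replicates of this experiment came from separate mice. The p-values there thus measure the spread between these samples, which may be other than that between mice. The experiments differed in read layout and sequencing centre and were never tested against each other.

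The cytokines of this family are heterodimers that share subunits. Il12b codes for the p40 chain, which joins the p35 chain from Il12a in IL-12 and the p19 chain from Il23a in IL-23, while Ebi3 joins the p28 chain from Il27 in IL-27 and p35 in IL-35. Il12rb1 and Il12rb2 together form the IL-12 receptor, and Il12rb1 also serves the IL-23 receptor. Macrophages and dendritic cells release IL-12 after microbial stimuli, and T cells and NK cells are its best known responders.

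Libraries held 19714994 to 29880494 counted reads in the polarization experiment and 13421854 to 19704195 in the reprogramming experiment. Values are given as CPM, the reads of a gene as a share of its library's reads on the usual per-library scale, with TMM-normalized library sizes. Markers fixed for macrophages (7 genes) summed to between 6211 and 18320 CPM in all libraries. In the siRNA pools the targeted genes stood at 25.2% ± 4.05 (SD, n = 3) of the negative pool mean for E2f1, 38.0% ± 8.01 for Myc, 21.9% ± 2.57 for Pparg and 27.3% ± 5.79 for Stat6. In the combined pool they stood at 60.4% ± 2.01, 39.6% ± 3.20, 28.3% ± 2.25 and 53.9% ± 4.82 of it in the same order. A gene passed the test, and is called higher or lower, where edgeR's quasi-likelihood test gave a Benjamini-Hochberg adjusted p under 0.05 over all genes tested, which numbered 16110 at 24 h and 14172 in the other experiment. In bulk RNA, fewer cells of a type and less RNA per cell cannot be told apart.

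The genes lie on 7 chromosomes of GRCm38. Il12a is at chr3:68690644-68698547 and Il12b at chr11:44400063-44414033, both on the plus strand. Il23a is at chr10:128296139-128298752 and Il27 at chr7:126589010-126594941, both on the minus strand. Ebi3 is at chr17:55952640-55957022 (plus strand), Il12rb1 at chr8:70808449-70821424 (plus strand) and Il12rb2 at chr6:67291318-67376188 (minus strand). Exons of 3 of these genes overlap another gene on the opposite strand. Il27 shares 103 nt with Apobr, Ebi3 shares 270 nt with the antisense gene Gm16712, and Il12rb2 shares 1519 nt with Serbp1. Whether the counting used strand is not given in the sources used here, so reads from the shared stretches cannot be assigned with certainty.

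RefSeq's promoter table (GRCm38.p6) held 4 of the 7 genes, and the 250 bases before the start are shown for each because these genes moved in different directions in the comparisons below. Il12b and Ebi3 were higher in M1-like macrophages, Il12a was higher at 24 h, and Il12rb2 was lower in M1-like macrophages of the reprogramming experiment. Sequences are written 5′ to 3′ on the gene's own strand, and capitals mark a match to one of 8 short motifs searched on both strands.
Il12b, chr11:44399813-44400062: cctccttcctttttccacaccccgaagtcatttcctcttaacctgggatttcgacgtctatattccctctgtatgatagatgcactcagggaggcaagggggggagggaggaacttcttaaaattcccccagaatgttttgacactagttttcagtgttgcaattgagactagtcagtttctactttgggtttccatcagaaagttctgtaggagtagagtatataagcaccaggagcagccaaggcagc
Il12a, downstream of its 2 starts, chr3:68691174-68691423: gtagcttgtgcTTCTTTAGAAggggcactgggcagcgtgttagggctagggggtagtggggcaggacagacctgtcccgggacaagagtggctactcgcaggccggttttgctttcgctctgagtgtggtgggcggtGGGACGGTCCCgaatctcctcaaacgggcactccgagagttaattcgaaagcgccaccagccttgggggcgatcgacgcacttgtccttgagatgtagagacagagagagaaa
Ebi3, chr17:55952373-55952622: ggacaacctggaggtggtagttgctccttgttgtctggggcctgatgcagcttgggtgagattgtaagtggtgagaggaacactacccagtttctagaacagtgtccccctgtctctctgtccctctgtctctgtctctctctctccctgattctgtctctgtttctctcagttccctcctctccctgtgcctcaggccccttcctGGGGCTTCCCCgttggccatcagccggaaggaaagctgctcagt
Il12rb2, minus strand, chr6:67376189-67376438: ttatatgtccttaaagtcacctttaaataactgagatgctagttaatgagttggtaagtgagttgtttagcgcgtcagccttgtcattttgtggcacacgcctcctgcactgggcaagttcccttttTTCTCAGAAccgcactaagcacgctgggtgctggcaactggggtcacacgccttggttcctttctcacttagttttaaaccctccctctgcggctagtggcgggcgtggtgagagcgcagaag

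The motifs were a κB-type element (GGGNNNNNCC), an interferon-stimulated response element (GAAANNGAAA), the interferon-γ activated sequence called GAS (TTCNNNGAA), its wider-spaced form bound by STAT6 (TTCNNNNGAA) and a C/EBP element (TTGCNNAA). The other motifs were an AP-1 element, with the letters TGANTCA, an E-box and the TATA box. The Ebi3 window held overlapping κB-type matches from base -44 to base -34 before the start. The downstream Il12a window held overlapping κB-type matches from -113 to -103 and a STAT6-type match from -239 to -230, and the window of the upstream start held a STAT6-type match from -200 to -191. The Il12rb2 window held a GAS-type match from -123 to -115. The E-box, searched as CACGTG, was in none of the 5 windows of these 4 genes and in 6.02% of all windows. The Il12b window held no match to any of the 8. Only these fixed letters were searched, so a window without a match may still hold a site of another spelling. Among all 32851 windows in the table, 45.8% held the κB-type letters, 7.02% the GAS letters and 5.85% the STAT6-type letters, so the first of these is common among promoters. The TATA box was searched as TATAAA and was in 12.4% of all windows and in none of the 5. The same held for the interferon-stimulated response element (2.98% of all windows), the C/EBP element (9.56%) and the AP-1 element (6.75%).

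**Figure D1:**
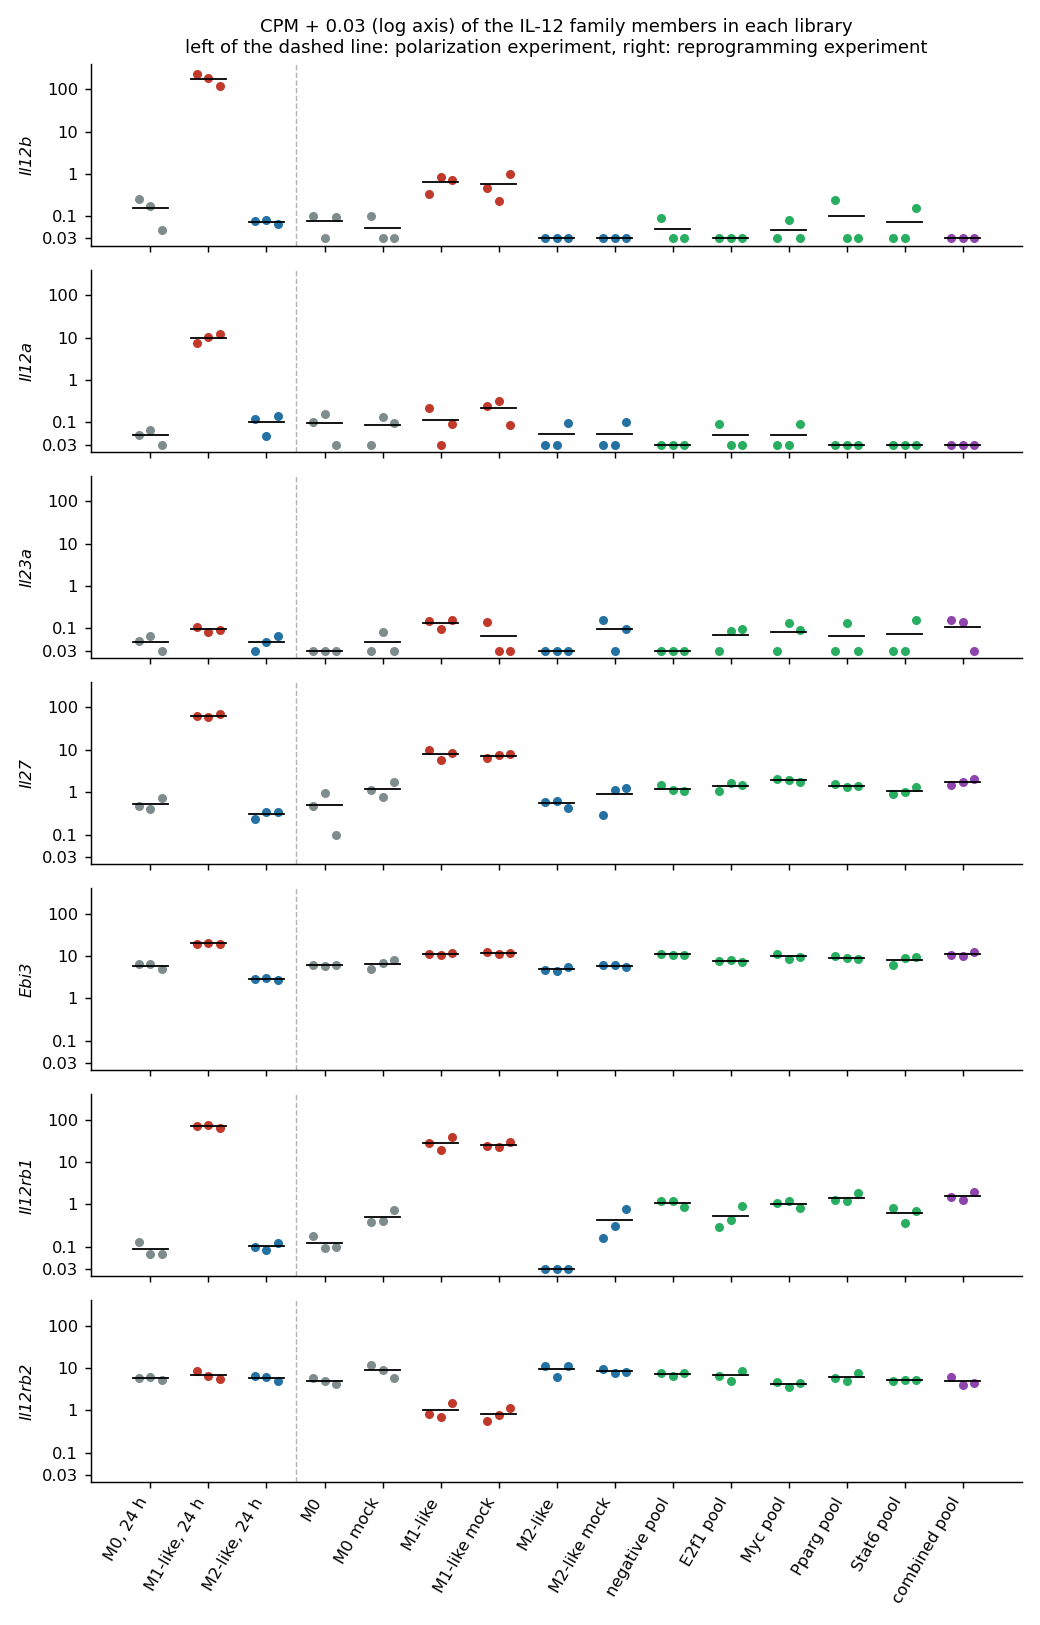
CPM + 0.03 (log axis) of the 7 genes in each library, with 3 points per condition and a bar at their mean; the tick at 0.03 is a CPM of 0. Within the polarization experiment Il12b, Il12a, Il27 and Il12rb1 stood far above M0 and M2-like macrophages in M1-like macrophages, and Il12rb2 was lowest in M1-like macrophages of the reprogramming experiment.

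The first question was how polarization set the cytokine subunits at 24 h. M1-like macrophages held far more mRNA for both chains of IL-12 and both chains of IL-27 than M0 macrophages, while the second chain of IL-23 was at the limit of detection. Of the 7 genes 6 were tested, and M1-like macrophages held 5 at a higher and none at a lower level than M0, in a comparison that called 72.9% of all genes tested. The M1-like and M0 libraries did not overlap for any of these 5. Of these, Il12a, Il12b and Il12rb1 passed the count filter through their M1-like samples.

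Il12b stood at 227, 181 and 119 CPM in the M1-like macrophages of mice 1, 2 and 3. In M0 macrophages it stood at 0.220, 0.149 and 0.0184 CPM, and in M2-like macrophages at 0.0463, 0.0530 and 0.0363 CPM. All 3 M1-like libraries were far above every other library of the experiment. The log2 fold change was 10.41 ± 0.36 (SE) against M0 (adjusted p = 8.79e-11) and 11.84 ± 0.40 against M2-like macrophages (adjusted p = 8.10e-11).

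Il12a, whose chain limits the assembly of IL-12 in many cells, was measured at a lower level. It stood at 7.43, 10.1 and 11.98 CPM in M1-like macrophages, against 0.0926, 0.0177 and 0.109 CPM in M2-like macrophages. The log2 fold change against M2-like macrophages was 7.06 ± 0.34 (adjusted p = 2.36e-09). M0 macrophages held 3 reads of it in all and M1-like macrophages 1246, a ratio of 528 with an exact 95% interval of 180 to 2565 that covers counting error only (adjusted p = 1.47e-09).

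Il27 stood at 61.8, 61.1 and 70.1 CPM in M1-like macrophages and at 0.440, 0.373 and 0.680 CPM in M0 macrophages. The M1-like mice lay close together and far from all others, and the log2 fold change was 7.0 ± 0.15 (adjusted p = 1.74e-12). Its partner Ebi3 was already present without stimulus. It stood at 6.56, 6.25 and 4.80 CPM in M0 macrophages. Stimulated with LPS and IFN-γ it stood at 19.5, 20.4 and 19.1 CPM, all above M0, with a log2 fold change of 1.75 ± 0.11 (adjusted p = 2.76e-08). Gm16712, antisense to Ebi3, moved alongside, from 0.754 to 0.820 CPM in M0 to 2.27 to 2.70 CPM in M1-like macrophages, whereas Apobr beside Il27 went the other way, from 109 CPM in M0 to 38.9 to 51.4 CPM in M1-like macrophages. The part of shared reads in either value was not tested.

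Il23a, the specific chain of IL-23, was not tested in either experiment because of its low counts. At 24 h it held 8 reads in M1-like, 3 in M0 and 3 in M2-like macrophages over all libraries. The ratio of M1-like to M0 macrophages was 3.39 with an exact 95% interval of 0.814 to 19.8, so that, although each M1-like library lay above each M0 library, no difference was detectable at this depth. In the reprogramming experiment untransfected M1-like macrophages held 5 reads of it and M0 macrophages 0. The highest level of Il23a in any of the 36 libraries of the reprogramming experiment was 0.130 CPM, in a replicate of the Stat6 pool, and the gene was at 0 reads in all libraries of untransfected M0 macrophages, untransfected M2-like macrophages and the negative pool.

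The receptor chains parted at 24 h. Il12rb1 stood at 69.8, 76.3 and 62.4 CPM in M1-like macrophages, against 0.10, 0.0373 and 0.0368 CPM in M0 macrophages. Every M1-like library was far above every M0 library, with a log2 fold change of 10.19 ± 0.18 (adjusted p = 4.45e-13). Il12rb2 stood at 8.40, 6.33 and 5.62 CPM in M1-like, 5.64, 6.10 and 5.26 CPM in M0 and 6.46, 6.18 and 4.82 CPM in M2-like macrophages. These 3 groups overlapped, and M1-like macrophages had log2 fold changes of 0.26 ± 0.16 against M0 (adjusted p = 0.159) and 0.22 ± 0.16 against M2-like macrophages (adjusted p = 0.226).

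IL-4 moved the IL-27 chains down at 24 h. Between M2-like and M0 macrophages 2 of the 6 genes tested were lower and none was higher, in a comparison that called 27.9% of all genes. Ebi3 fell to 2.78, 3.04 and 2.70 CPM, below all M0 libraries, by 1.04 ± 0.12 on the log2 scale (adjusted p = 8.03e-05). Il27 stood at 0.208, 0.318 and 0.308 CPM, also below all M0 libraries, with a log2 fold change of -0.81 ± 0.27 (adjusted p = 0.0422). The Il27 call was lost without any single library but M0 of mouse 2, with adjusted p-values of 0.0639 to 0.231. Between M1-like and M2-like macrophages 5 of 6 genes were higher and none lower, in a comparison that called 72.6% of all genes, and these were the 5 that also differed from M0. Il27, Ebi3 and Il12rb1 then had log2 fold changes of 7.81 ± 0.16, 2.79 ± 0.12 and 9.88 ± 0.17 (adjusted p = 1.34e-12, 6.61e-10 and 4.47e-13).

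Summed markers of several other cell types moved with the M1-like group at 24 h. The 6 dendritic cell markers summed to 29.5 to 40.4 CPM in M1-like macrophages against 2.96 to 5.90 CPM in M0, and Ccr7 alone reached 36.6 CPM while Siglech stayed at or below 0.0177 CPM and Flt3 at or below 0.533 CPM in all libraries of the experiment. The 6 T cell markers summed to 4.95 to 5.90 CPM in M1-like and 0.951 to 1.14 CPM in M0 macrophages, with Lck reaching 5.72 CPM and Cd3e no more than 0.0559 CPM. The 5 NK cell markers summed to at most 0.760 CPM. Neutrophil markers summed to 9.50 to 14.3 CPM in M1-like and 5.95 to 7.996 CPM in M0 macrophages. Of these 5 markers, S100a8 ran from 5.62 to 13.4 CPM and the other 4 stayed below 1 CPM in all libraries of the experiment. Eosinophil and mast cell markers went the other way, from 16.2 to 17.9 CPM in M0 and 14.3 to 18.8 CPM in M2-like macrophages to 0.395 to 1.02 CPM in M1-like macrophages. This sum was nearly all Siglecf, at 0.208 to 18.5 CPM over the experiment, while Epx stayed at or below 0.0184 CPM and Cpa3 at or below 1.02 CPM. Mesothelium and fibroblast markers summed to 10.2 to 17.2 CPM in M0 and 2.54 to 4.06 CPM in M1-like macrophages, and the macrophage markers themselves to 16107 to 17376 CPM and 10281 to 11296 CPM. The part of such cells in the levels above was not tested.

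Compared per length, over the union of a gene's exons, the chains of each heterodimer were unequal in M1-like macrophages at 24 h. Il12b was at 89.3 ± 27.4 RPKM (mean ± SD, n = 3) and Il27 at 63.0 ± 4.89 RPKM, and their libraries overlapped. Ebi3 followed at 17.0 ± 0.57 RPKM and Il12rb1 at 16.9 ± 1.69 RPKM, then Il12a at 5.78 ± 1.34 RPKM, Il12rb2 at 1.79 ± 0.38 RPKM and Il23a at 0.0289 ± 0.0067 RPKM. Ebi3 and Il12rb1 did not separate on this scale, but with the longest transcript as the length Il12rb1 was at 24.2 RPKM and Ebi3 was unchanged.

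Within a library, the per-length level of Il12b was 8.61 to 26.4 times that of Il12a in M1-like macrophages at 24 h. For IL-27, the ratio of Il27 to Ebi3 per length was 0.101 ± 0.051 (SD, n = 3) in M0, 0.111 ± 0.023 in M2-like and 3.70 ± 0.40 in M1-like macrophages, so Ebi3 was the more abundant chain in the first 2 states and Il27 in the last. With 3 samples a group, an exact permutation test of a single value cannot go below p = 0.10, and none was run on these ratios.

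**Figure D2:**
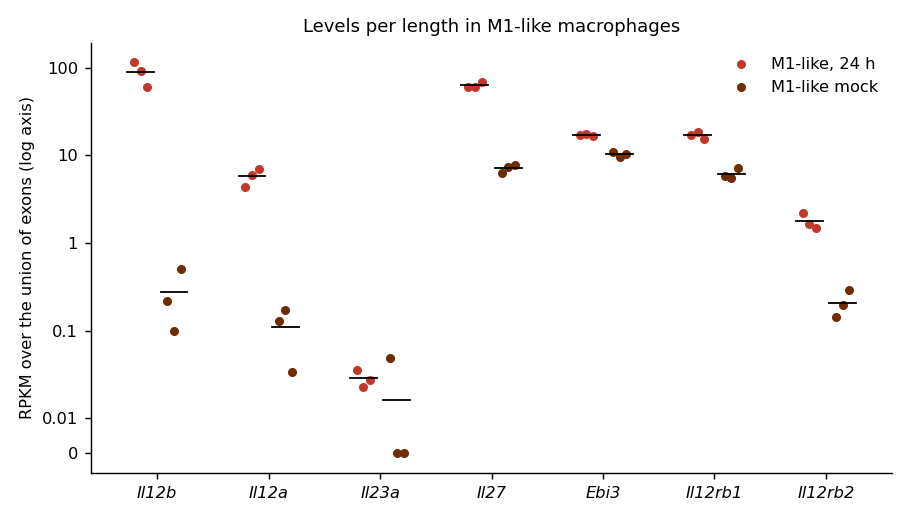
RPKM (log axis) of the 7 genes in M1-like macrophages at 24 h and in M1-like mock macrophages, with 3 points and a bar at the mean; libraries at 0 are drawn at the lowest tick. Il12b was highest per length at 24 h with a mean of 89.3, and Ebi3 was highest in M1-like mock macrophages with a mean of 10.3.

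The reprogramming experiment asked the same of macrophages that served as its references. Here the IL-27 chains and Il12rb1 were again higher in M1-like macrophages, the IL-12 chains were near the floor in every condition, and Il12rb2 was lower in M1-like macrophages. Against untransfected M0 macrophages, 4 of the 5 genes tested were higher and 1 was lower in M1-like macrophages, in a comparison that called 57.7% of all genes. The counts were the same against M2-like macrophages (61.5% of all genes called), for M1-like mock against M0 mock (60.4%) and for M1-like mock against M2-like mock (60.7%). In each of these comparisons Il12b, Il27, Ebi3 and Il12rb1 were the higher genes and Il12rb2 the lower one. Il12b passed the count filter only through M1-like libraries, so its place in these counts depends on the group in which it was high.

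Il27 stood at 9.95, 5.76 and 8.58 CPM in untransfected M1-like macrophages and at 6.47, 7.46 and 7.89 CPM after mock transfection. In untransfected M0 macrophages it stood at 0.439, 0.931 and 0.0682 CPM and in M2-like macrophages at 0.572, 0.580 and 0.397 CPM. No M1-like library overlapped these, with a log2 fold change of 4.02 ± 0.37 against M0 (adjusted p = 5.77e-11). Under mock transfection the log2 fold change was 2.62 ± 0.32 against M0 (adjusted p = 2.18e-08) and 3.06 ± 0.34 against M2-like macrophages (adjusted p = 3.07e-09).

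Ebi3 changed less, as it had at 24 h. It stood at 11.0, 10.4 and 11.5 CPM in untransfected M1-like, 6.00, 5.77 and 5.93 CPM in M0 and 4.58, 4.45 and 5.55 CPM in M2-like macrophages. The M1-like libraries were all above the others, with a log2 fold change of 0.89 ± 0.15 against M0 (adjusted p = 4.36e-06). The ratio of Il27 to Ebi3 per length was 0.830 ± 0.196 in untransfected and 0.694 ± 0.099 in mock M1-like macrophages, against 0.093 ± 0.085 in untransfected M0 and 0.123 ± 0.037 in untransfected M2-like macrophages. After mock transfection it was 0.209 ± 0.072 in M0 and 0.174 ± 0.111 in M2-like macrophages.

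Il12rb1 stood at 28.3, 19.0 and 38.4 CPM in untransfected M1-like macrophages. In M0 macrophages it stood at 0.146, 0.0620 and 0.0682 CPM, below M1-like macrophages with a log2 fold change of 8.19 ± 0.42 (adjusted p = 1.13e-16), and in the 3 untransfected M2-like libraries it had 0 reads, against 1357 reads in M1-like macrophages. M1-like macrophages were therefore 428-fold above a floor of 3 reads over the M2-like group.

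Il12rb2 went the other way. It stood at 0.794, 0.669 and 1.45 CPM in untransfected M1-like macrophages and at 0.544, 0.737 and 1.10 CPM after mock transfection. Every M0 and M2-like library of the experiment was above these, from 3.56 CPM upward when the siRNA pools are included. The log2 fold change was -2.32 ± 0.32 against M0 (adjusted p = 2.96e-07) and -3.25 ± 0.30 against M2-like macrophages (adjusted p = 6.41e-11), and -3.48 ± 0.31 and -3.40 ± 0.31 in the mock comparisons (adjusted p = 1.96e-11 and 3.49e-11). Serbp1, which shares exon sequence with Il12rb2, stood at 185 to 197 CPM in untransfected M1-like and 229 to 257 CPM in M2-like macrophages. Markers of mesothelium and fibroblasts summed to 8.65 to 51.0 CPM over both M1-like groups and to 53.4 to 242 CPM over all other groups, and the 5 B cell markers to 0.733 to 2.36 CPM and 6.38 to 34.9 CPM. Eosinophil and mast cell markers summed to 0.672 to 1.77 CPM over both M1-like groups and 9.47 to 47.3 CPM over the others, and the macrophage markers to 6211 to 7786 CPM and 11632 to 18320 CPM. Among the eosinophil and mast cell markers, Siglecf alone reached 45.8 CPM, Cpa3 no more than 2.13 CPM and Epx no more than 0.134 CPM. The other 4 marker sums overlapped between both M1-like groups and the others. T cell markers summed to 2.26 to 4.10 CPM and 0.586 to 8.49 CPM, and NK cell markers to 0.0631 to 0.272 CPM and 0 to 3.05 CPM. Dendritic cell markers summed to 3.83 to 7.20 CPM and 2.16 to 5.34 CPM, and neutrophil markers to 7.56 to 13.1 CPM and 3.17 to 10.2 CPM. The part of all these cells in the Il12rb2 difference was not tested.

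Il12b was called higher in M1-like macrophages on few reads. It passed the count filter of this experiment only through M1-like libraries. With only the compared groups in the model, the filter removed it from each of these comparisons. Its adjusted p-values below are thus no support beyond the reads themselves. Untransfected M1-like macrophages held 5, 12 and 11 reads (0.305, 0.803 and 0.694 CPM) and M1-like mock macrophages 8, 4 and 17 reads (0.435, 0.196 and 0.987 CPM). M0 macrophages held 2 reads in all and M0 mock macrophages 1, and the ratios of M1-like to M0 were 13.2 (exact 95% interval 3.33 to 114, adjusted p = 0.00412) untransfected and 25.0 (4.14 to 1020, adjusted p = 0.00212) after mock transfection. Both M2-like groups held 0 reads. M1-like macrophages were above a floor of 3 reads over the group by 8.83-fold untransfected (adjusted p = 0.000547) and 7.64-fold after mock transfection (adjusted p = 0.000850). Il12a did not reach the count filter, with 4 reads in untransfected and 11 in mock M1-like macrophages.

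The level of Il12b in M1-like macrophages was thus 119 to 227 CPM in the polarization experiment and 0.196 to 0.987 CPM in the reprogramming experiment, and that of Il12a 7.43 to 11.98 and 0 to 0.295 CPM. These values stand side by side only. Sequencing centre, read layout, cell preparation and time in culture cannot be told apart here. The labels give no time for the untransfected libraries, and the 24 h in the methods is not stated for this experiment in particular.

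**Figure D3:**
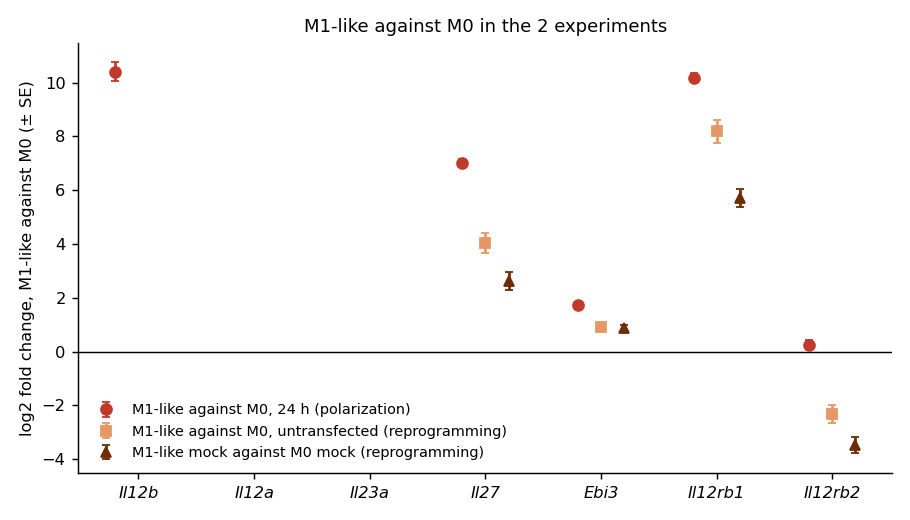
Log2 fold changes (± SE) of M1-like against M0 macrophages at 24 h, untransfected and after mock transfection, for members tested with more than 3 reads in each group. Il27, Ebi3 and Il12rb1 were higher in all 3 comparisons, and Il12rb2 was lower in the last 2, at -2.32 and -3.48.

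M2-like and M0 macrophages of this experiment differed in the receptor. Untransfected, 1 of 5 genes was higher in M2-like macrophages and none was lower, where 19.9% of all genes were called. This was Il12rb2, at 10.9, 5.99 and 11.1 CPM against 5.71, 4.90 and 4.09 CPM in M0, with no overlap and a log2 fold change of 0.93 ± 0.24 (adjusted p = 0.00613). After mock transfection none of the 5 genes was called by edgeR (3.83% of all genes called), none had an unadjusted p under 0.05, and DESeq2 called none.

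Mock transfection itself was compared with no transfection, since it is the background of the siRNA pools. The methods state no time for the untransfected libraries of this experiment in particular. If these were taken at 24 h, mock cells also had a further 48 h in culture, which for M2-like cells passed without IL-4. Transfection and such a further time cannot be told apart, so the mock effects given below may hold both. In M0 macrophages 2 of 5 genes were higher after mock transfection, where 20.4% of all genes were called. Il12rb2 stood at 11.8, 8.97 and 5.88 CPM after mock transfection against 5.71, 4.90 and 4.09 CPM before it, without overlap, with a log2 fold change of 0.86 ± 0.24 (adjusted p = 0.0102). Il12rb1 stood at 0.350, 0.376 and 0.718 CPM against 0.146, 0.0620 and 0.0682 CPM, a log2 fold change of 2.31 ± 0.80 on 23 and 4 reads in all (adjusted p = 0.0386). Il27 had a log2 fold change of 1.24 ± 0.46 (adjusted p = 0.0512). It was called with RLE size factors (0.0498), without the count filter (0.0189), by DESeq2 (0.0221) and without M0 replicate 2 (0.00643) or M0 mock replicate 2 (0.0292), and over all alternatives its adjusted p ran from 0.00643 to 0.28. The Il12rb1 call was lost in 5 of the 6 fits that left out 1 library, with adjusted p-values of 0.0510 to 0.149, and the Il12rb2 call without M0 replicate 3 (0.0633) or M0 mock replicate 1 (0.101).

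In M2-like macrophages, where 1.77% of all genes were called, Il12rb1 was the 1 gene of the 5 that was higher after mock transfection. It went from 0 reads in all 3 libraries to 2, 4 and 11 reads (0.128, 0.280 and 0.767 CPM), 5.72-fold above a floor of 3 reads over the untransfected group (adjusted p = 0.0295). The call was lost without mock replicate 3 (adjusted p = 0.282) and without any one of the 3 untransfected libraries (0.101 to 0.137). In M1-like macrophages edgeR called none of the 5 genes and 0.0% of all genes, no member had an unadjusted p under 0.05, and DESeq2 called no member. Whether the mock effect differed between states was tested as an interaction. None of the 5 genes was called for M1-like minus M0 (9.07% of all genes called, 3 members with an unadjusted p under 0.05, 2 called by DESeq2), where Il12rb1 had a difference of -2.48 ± 0.82 on the log2 scale (adjusted p = 0.0553). None was called for M2-like minus M0 (5.66% of all genes called, 1 member with an unadjusted p under 0.05, 1 called by DESeq2), where Il12rb2 had a difference of -1.01 ± 0.33 (adjusted p = 0.0698). For M1-like minus M2-like, where 1.13% of all genes were called, the mock effect on Il12rb1 was lower in M1-like macrophages (adjusted p = 0.0369).

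The siRNA pools asked whether loss of the 4 transcription factors moves M2-like macrophages towards the M1-like state. Against mock, the combined pool was followed by more mRNA of both IL-27 chains and of Il12rb1 and by less Il12rb2, with 3 of 5 genes higher and 1 lower where 37.1% of all genes were called. Against the negative pool, none of these differences passed the test in the main fit, which has no block. With the replicate number as a block in edgeR, the Il12rb2 difference passed it (adjusted p = 0.0274).

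Ebi3 stood at 10.4, 9.78 and 12.3 CPM in the combined pool and at 5.95, 5.96 and 5.44 CPM after mock transfection, without overlap, with a log2 fold change of 0.90 ± 0.15 (adjusted p = 9.24e-06). The negative pool stood at 11.1, 10.5 and 10.7 CPM, as far above mock, with a log2 fold change of 0.90 ± 0.15 (adjusted p = 6.26e-05). Ebi3 was the 1 gene of 5 called between negative pool and mock, where 11.7% of all genes were called. Between combined and negative pool it had a log2 fold change of 0.01 ± 0.14 (adjusted p = 0.978).

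Il12rb1 stood at 1.46, 1.25 and 1.89 CPM in the combined pool, 1.14, 1.20 and 0.858 CPM in the negative pool and 0.128, 0.280 and 0.767 CPM after mock transfection. Both pools lay above all mock libraries. The log2 fold change was 1.96 ± 0.46 for the combined pool against mock (adjusted p = 0.00108), 1.44 ± 0.49 for the negative pool against mock (adjusted p = 0.0542) and 0.52 ± 0.37 for the combined against the negative pool (adjusted p = 0.312).

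Il27 stood at 1.46, 1.74 and 2.01 CPM in the combined pool and at 0.256, 1.12 and 1.25 CPM after mock transfection, a log2 fold change of 1.0 ± 0.39 (adjusted p = 0.0409). Mock replicate 1, with 4 reads, was the lowest library, and without it the log2 fold change was 0.55 (adjusted p = 0.288). The call was also lost without combined pool replicate 2 (0.0775) or 3 (0.122). Against the negative pool, at 1.44, 1.07 and 1.03 CPM, the log2 fold change was 0.55 ± 0.36 (adjusted p = 0.272).

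Il12rb2 stood at 5.97, 4.02 and 4.44 CPM in the combined pool, 7.76, 6.4 and 7.78 CPM in the negative pool and 9.48, 7.64 and 8.02 CPM after mock transfection. The combined pool lay below all libraries of both. The log2 fold change was -0.81 ± 0.24 against mock (adjusted p = 0.00853, and 0.0519 without combined pool replicate 2). Against the negative pool it was -0.61 ± 0.24 (adjusted p = 0.0599). Serbp1 stood at 173 to 192 CPM in the combined pool, 160 to 188 CPM in the Myc pool and 244 to 263 CPM in the negative pool. Its part in the Il12rb2 values was not tested.

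Over the 5 genes tested between combined and negative pool, edgeR called none, where 26.5% of all genes were called, 1 had an unadjusted p under 0.05, and DESeq2 called none. The replicate number as a block made the Il12rb2 difference a call (adjusted p = 0.0274), and so did the fit without a count filter (0.00973), the fit on the 2 groups alone (0.0166) and the fit without combined pool replicate 1 (0.0372). The IL-12 chains were at the floor in the combined pool and in its controls alike. The negative pool held 0 reads of Il12a and 1 of Il12b, and M2-like mock macrophages held 1 and 0. Il12a and Il12b both had 0 reads in the 3 libraries of the combined pool, for which a floor of 3 reads over the group was taken. M1-like mock macrophages were 8.73-fold above this floor in Il12b (adjusted p = 0.000688), which passed the count filter only through M1-like libraries.

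The pools against single factors were each compared with the negative pool, and differences between these pools were not tested. In the Myc pool edgeR called 1 of the 5 genes. Il12rb2 stood at 4.59, 3.56 and 4.41 CPM, below all negative pool libraries, with a log2 fold change of -0.81 ± 0.24 (adjusted p = 0.0115, and 0.0624 without Myc pool replicate 2), where 29.6% of all genes were called. Il27 stood at 2.02, 1.93 and 1.68 CPM in the same pool, above all negative pool libraries, with a log2 fold change of 0.67 ± 0.35 (adjusted p = 0.155).

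In the E2f1 pool edgeR called none of the 5 genes, where 0.910% of all genes were called, while 2 had an unadjusted p under 0.05 and DESeq2 called 1. Ebi3 stood at 7.38, 8.13 and 7.20 CPM, below all negative pool libraries, with a log2 fold change of -0.51 ± 0.14 (adjusted p = 0.0852, and 0.0427 by DESeq2 and 0.0363 with only the compared groups), and Il12rb1 had a log2 fold change of -1.06 ± 0.46 (adjusted p = 0.369). In the Stat6 pool none was called, where 1.51% of all genes were called, 2 had an unadjusted p under 0.05 and DESeq2 called none. Ebi3 there had a log2 fold change of -0.42 ± 0.14 (adjusted p = 0.148) and Il12rb2 of -0.51 ± 0.24 (adjusted p = 0.381). In the Pparg pool none was called, where 5.74% of all genes were called, none had an unadjusted p under 0.05 and DESeq2 called none.

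**Figure D4:**
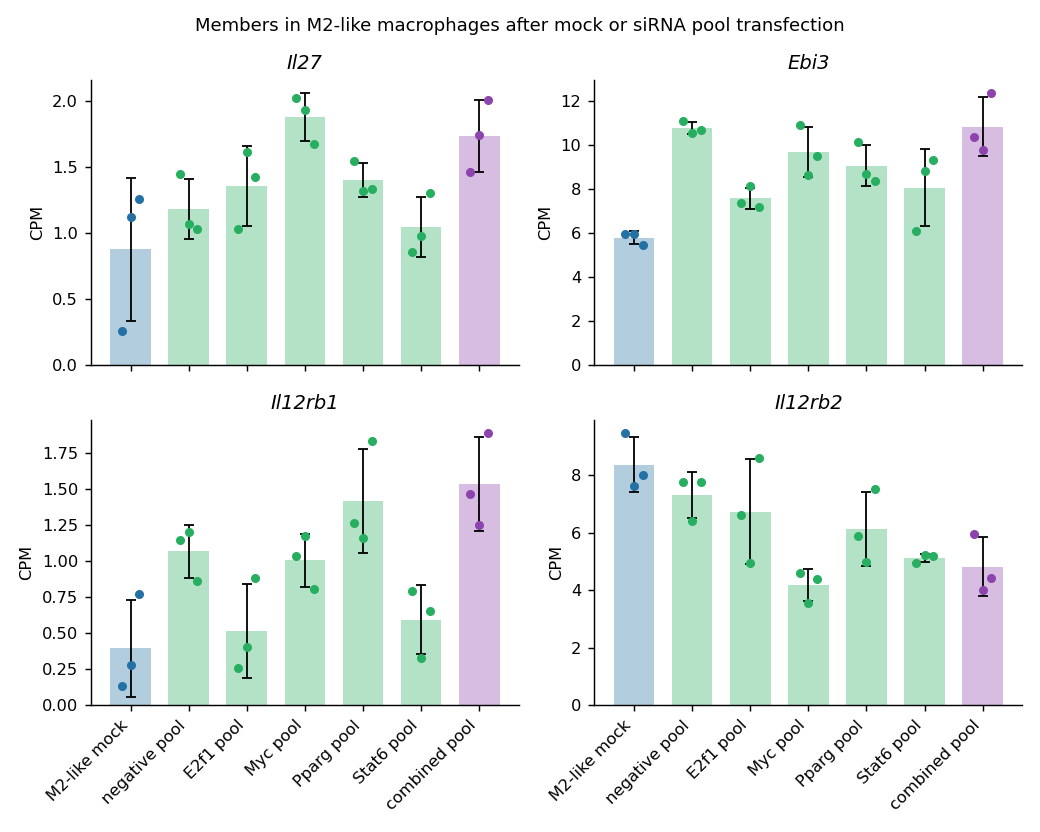
CPM of Il27, Ebi3, Il12rb1 and Il12rb2 in M2-like macrophages after mock transfection or siRNA pools, with bars at the mean, error bars of 1 SD and 3 points per condition. Ebi3 stood near 5.78 after mock transfection and near 10.8 in both the negative and the combined pool, and Il12rb2 was lowest in the Myc pool, with a mean of 4.18.

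The combined pool was then set against each single pool. Ebi3 was higher in the combined pool than in the E2f1 pool by a log2 fold change of 0.51 ± 0.14 (adjusted p = 0.00808) and than in the Stat6 pool, at 6.07, 8.81 and 9.30 CPM, by 0.42 ± 0.14 (adjusted p = 0.0282). Il12rb1 was higher than in the E2f1 pool, at 0.257, 0.404 and 0.882 CPM, by 1.58 ± 0.43 (adjusted p = 0.00724) and than in the Stat6 pool, at 0.792, 0.326 and 0.651 CPM, by 1.36 ± 0.42 (adjusted p = 0.0178). No library overlapped in these 4 comparisons. They were the 2 of 5 genes called against the E2f1 pool (21.6% of all genes called) and the 2 of 5 called against the Stat6 pool (22.2%). Without combined pool replicate 3 the Ebi3 call was lost against both pools (adjusted p = 0.0687 and 0.161) and the Il12rb1 call against the Stat6 pool (0.0807). The Stat6 pool calls were also lost without its replicate 1 for Ebi3 (0.227) and without its replicate 2 for Il12rb1 (0.0998), and the E2f1 pool call for Il12rb1 without its replicate 1 (0.0561). Against the Myc pool (0.0494% of all genes called) and the Pparg pool (18.0%) edgeR called none of the 5, none had an unadjusted p under 0.05, and DESeq2 called none.

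Set beside M1-like mock macrophages, the combined pool held 1 gene of 5 at a higher and 3 at a lower level, where 52.9% of all genes were called. Il27 was lower by a log2 fold change of -2.06 ± 0.30 (adjusted p = 8.20e-07) and Il12rb1 of -4.05 ± 0.27 (adjusted p = 1.08e-13), and Il12b was lower as given above. Il12rb2 was higher, with a log2 fold change of 2.59 ± 0.32 (adjusted p = 4.82e-08). Ebi3, at 12.6, 11.2 and 11.9 CPM in M1-like mock macrophages, overlapped with the combined pool and had a log2 fold change of -0.14 ± 0.13 (adjusted p = 0.409).

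Over the 12 conditions of the reprogramming experiment the levels fell into the following order. Il27 and Il12rb1 were highest in M1-like and M1-like mock macrophages, which overlapped with each other and with no other condition. Il27 then ran in overlapping steps from 1.88 CPM in the Myc pool to 0.479 CPM in M0. Il12rb1 ran from 1.53 CPM in the combined pool to 0.0922 CPM in M0, with 0 reads in M2-like macrophages. In that order the Myc pool (1.0 CPM) and the Stat6 pool next to it (0.590 CPM) did not overlap, but the E2f1 pool, ranked lower, reached 0.882 CPM and overlapped with the Myc pool. Ebi3 ran without a gap from 11.9 CPM in M1-like mock to 4.86 CPM in M2-like macrophages, with the combined and negative pools next after both M1-like groups. Il12rb2 ran from 9.35 CPM in M2-like macrophages to 4.18 CPM in the Myc pool in overlapping steps, and both M1-like groups lay apart below it.

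The genes whose means over these 12 conditions were most like those of a member on the log2 CPM scale (prior count 2) were sought among 12164 genes with a mean of at least 1 CPM. For Il27 they were Rbm28 (r = 0.990), Gbp2b (0.989) and Gdap10 (0.986), and for Il12rb1 Uhrf1bp1 (0.989), Gbp2b (0.988) and Tap2 (0.988). For Il12rb2 they were Zfp532 (0.996), March1 (0.992) and Rin3 (0.990). For Ebi3 they were 1600014C10Rik (0.965), Phf11c (0.958) and Mrpl19 (0.957), and for Il12b Mrpl13 (0.992), Snrpa1 (0.988) and Crem (0.987). Among the members, Il27 and Il12rb1 were the most alike with r = 0.975, and Il12b and Il12rb2 the most opposed with r = -0.947. These r describe 12 condition means that share libraries and normalization and rest largely on the M1-like groups, and Il12b rests on few reads. With a prior count of 0.5, the same 3 genes led for Il12rb2 and Ebi3, and 1 of the 3 for Il27 and Il12rb1 and 2 of the 3 for Il12b stayed among them.

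Around the family stood 29 genes of its receptors, kinases, transcription factors and inducers. This list was chosen with earlier results of these data known, so its counts and medians are descriptions only. At 24 h all 29 were tested and 25 were higher and 4 lower in M1-like macrophages than without stimulus (72.9% of all genes called), with a median log2 fold change of 2.26 against -0.04 over all genes. Socs1, a feedback inhibitor of cytokine receptors, stood at 260 ± 30.7 CPM (SD, n = 3) in M1-like and 0.576 ± 0.070 CPM in M0 macrophages (log2 fold change 8.81 ± 0.20, adjusted p = 2.71e-12). Socs3, an inhibitor of signalling through the gp130 chain, stood at 415 ± 19.4 CPM and 5.0 ± 0.84 CPM (6.38 ± 0.12, adjusted p = 5.49e-13). Ifng, the cytokine that IL-12 induces in lymphocytes, stood at 0.492 ± 0.176 CPM and had 0 CPM in all M0 libraries (adjusted p = 0.000106). Between M2-like and M0 macrophages at 24 h, 10 of the 29 were higher and 6 lower (27.9% of all genes called), and between M1-like and M2-like macrophages 23 were higher and 4 lower (72.6%).

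In the reprogramming experiment 26 of the 29 were tested. Between M1-like mock and M2-like mock macrophages 14 were higher and 5 lower (60.7% of all genes called), with a median log2 fold change of 0.40 against 0.03 over all genes. Socs3 stood at 147 ± 34.0 CPM and 6.77 ± 0.48 CPM (log2 fold change 4.44 ± 0.48, adjusted p = 1.83e-09). Irf1, an interferon-induced transcription factor, stood at 744 ± 68.4 CPM and 51.1 ± 7.65 CPM (3.86 ± 0.13, adjusted p = 1.45e-21), and Socs1 at 42.4 ± 14.96 CPM and 3.34 ± 0.31 CPM (3.66 ± 0.28, adjusted p = 9.80e-13). Between combined and negative pool 4 were higher and 7 lower (26.5% of all genes called), with a median of 0.04 against 0.01 over all genes. Nfkbiz, a nuclear IκB protein, stood at 17.2 ± 0.52 CPM and 11.7 ± 0.23 CPM (0.56 ± 0.16, adjusted p = 0.00966), Rela, the p65 subunit of NF-κB, at 114 ± 2.41 CPM and 79.3 ± 3.44 CPM (0.52 ± 0.09, adjusted p = 6.28e-05), and Il6st, the gp130 chain of the IL-27 receptor, at 176 ± 2.07 CPM and 247 ± 21.3 CPM (-0.49 ± 0.08, adjusted p = 9.48e-06). Between Myc and negative pool 3 were higher and 8 lower (29.6% of all genes called), and in the Pparg pool 3 were higher and 1 lower (5.74%). In the E2f1 pool (0.910% of all genes called) and the Stat6 pool (1.51%) edgeR called none of the 26 and DESeq2 called none, while 3 and 5 had an unadjusted p under 0.05.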

How the data were processed

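RNA sequencing counts of 54 libraries were used, 18 of the polarization and 36 of the reprogramming experiment. The authors trimmed reads with Trimmomatic, mapped them to GRCm38/mm10 with TopHat2, counted them per gene with featureCounts and deposited whole-number read counts without normalization; versions and the strand setting are not given in the sources used here. Symbols, coordinates and exon lengths came from GENCODE M21, which is of the same build. Groups were taken from the labels. The 2 technical replicates of a mouse were summed.

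Genes were filtered (filterByExpr, minimum count 10, minimum total count 15), normalized by TMM and put to the two-sided quasi-likelihood test of edgeR, adjusted by Benjamini-Hochberg over all genes tested, in 1 model per experiment. The standard error is the log2 fold change divided by the square root of F. Where a group held 3 reads or fewer in all, the ratio of pooled reads is given with an exact 95% interval, and against 0 reads the ratio to a floor of 3 reads over the group. The ratio to a floor covers neither the counting error of the other group nor the spread between replicates. Alternatives were RLE size factors, no filter, DESeq2 (the tool the study names), the replicate number as a block, only the compared groups, leaving out each replicate, technical replicates as separate samples, a prior count of 0.5 and the longest transcript as length. Tests were checked on simulated counts.

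The labels give the same mouse numbers in the 3 groups at 24 h. Deviations from group means correlated between samples of a mouse with a median r of 0.250 (from -0.056 to 0.425), and 8 of 9 samples correlated best with their own mouse. With the mouse as a block no member's call changed. Technical replicates differed by about as much as counting noise (chi-square per gene of 1.07 to 1.10), different mice by far more (3.64 to 52.1). Replicates of 1 condition in the reprogramming experiment differed by 4.475 to 22.97 on this scale. The 7 members and the gene lists were chosen with earlier results of these data known. All members are described everywhere; of the pathway list, the 3 largest changes that passed the test are named in each of 3 comparisons, and of all genes, the 3 most like a member in pattern. Promoter sequences are from RefSeq (GRCm38.p6). Versions were edgeR 4.0.16 and DESeq2 1.42.0 under R 4.3.3, and for Python 3.11.15 the packages pandas 2.3.3, SciPy 1.17.1, matplotlib 3.10.9 and NumPy 2.4.6.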

Additional observations from a re-analysis of the deposited data

Results flagged for a closer look

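The effect of mock transfection on Il12rb1 differed between M1-like and M2-like macrophages by a test of the difference itself (edgeR interaction contrast, adjusted p = 0.0369). This effect may also hold a further 48 h in culture, since no time is stated for the untransfected libraries of this experiment in particular. In M2-like macrophages Il12rb1 went from 0 reads in all 3 untransfected libraries to 17 reads over the 3 mock libraries, and in M1-like macrophages from 1357 to 1415 reads. The call was lost without mock M2-like replicate 2 (adjusted p = 0.0555) or 3 (0.347), without any one untransfected M2-like library (0.123 to 0.144) and with only the compared groups in the model (0.395).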

How the results depend on the processing

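Every count of members called kept within 1.5 times its value with RLE size factors and with technical replicates as separate samples. Without the filter on low counts the members called were 2 higher in the negative pool against mock, 1 lower in the combined against the negative pool, and 3 and 1 lower for the mock effect in M1-like and in M2-like minus M0. With DESeq2 they were 2 higher for the negative pool against mock, 1 lower in the E2f1 pool, and 2 and 1 lower for the same mock effects. Replicate numbers of the reprogramming experiment name no shared animal in the labels. Same-numbered samples correlated with a median r of 0.183 (from -0.249), and 34 of 36 correlated best with their own number. With this number as a replicate block the members called were 2 higher for the negative pool against mock (Il12rb1, adjusted p = 0.0161, beside Ebi3), 1 lower in the combined against the negative pool, and 1 and 1 lower for the mock effects in M1-like and M2-like minus M0. With only the compared groups in the model Il27 was no longer called in M2-like against M0 at 24 h (adjusted p = 0.0871) or in the combined pool against mock (0.0919), and the members called were 1 lower in M2-like against M0 at 24 h, 1 higher after mock transfection in M0 and 0 in M2-like macrophages, 1 lower in the combined against the negative pool, 1 lower in the E2f1 pool, 1 higher in the combined against the Stat6 pool, and 0 lower for the mock effect in M1-like minus M2-like; Il12b was then removed by the count filter in 5 comparisons.

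Leaving out 1 library, the members called ranged from 1 to 2 lower in M2-like against M0 at 24 h, from 0 to 2 higher after mock transfection in M0, and from 0 to 1 higher in M2-like macrophages. They ranged from 1 to 2 higher for the negative pool against mock, from 0 to 1 lower for the combined pool against mock or the negative pool and for the Myc pool, from 1 to 2 higher against the E2f1 pool, from 0 to 2 higher against the Stat6 pool, and from 0 to 1 lower for each mock interaction. Ebi3 in the combined against the negative pool ranged from -0.098 to 0.077 on the log2 scale, below 0 without combined pool replicate 3 or negative pool replicate 2. Genes under a few reads per library, such as Il23a, Il12a and Il12b in the reprogramming experiment, were limited by depth.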
